A study of Mus musculus with 16 samples.

Results

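The 3 MYB transcription factor genes of the mouse (Mybl1, Mybl2 and Myb), the 5 subunits of the MuvB core (Lin9, Lin37, Lin52, Lin54 and Rbbp4) and Foxm1 were followed by RNA-seq in embryonic stem (ES) cells. These 9 genes were chosen by name for their known roles, with earlier results of these data known, and all 9 were found among the 23420 genes of the count files and among the 14664 with enough reads to be tested. The cells were the J1 line of strain 129S4/SvJae at passage 36, sampled on day 3 and kept on gelatin in 2i/LIF medium, with no feeder cells. Every library, controls included, came from cells with inserted transgenes: dCas9-VPR, a Cas9 that cannot cut DNA joined to activation domains, and RLTR10B2-gRNA-DsRed, which pairs a guide RNA for the endogenous retroviral repeat RLTR10B2 with a red fluorescent protein. The 4 groups were control cells (no doxycycline, no A-MYB), Dox cells (1 µg/ml doxycycline), A-MYB cells (A-MYB expression, no doxycycline) and Dox + A-MYB cells (both). Both inductions were made on days 1 and 2. Each group had 2 libraries. No label says that these came from separate cultures, so the p-values measure the spread between libraries, which may be technical. No group analysed here received doxycycline without the activator, so an effect of the drug and one of the activator cannot be told apart. RNA came from whole wells, where fewer cells with a transcript and less of it per cell cannot be told apart.

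MYB proteins bind DNA and activate transcription. B-MYB (Mybl2) is the family member of dividing cells, A-MYB (Mybl1) works in meiotic male germ cells, and c-MYB (Myb) is best known from blood progenitors. The MuvB core (LIN9, LIN37, LIN52, LIN54 and RBBP4) has no enzymatic activity of its own: bound to p130 or p107 with E2F4 and DP1 it forms the DREAM complex, which represses cell cycle genes in resting cells, and bound to B-MYB and later FOXM1 it activates genes of G2 and mitosis. LIN54 is the subunit that binds the CHR element (cell cycle genes homology region), and B-MYB docks through LIN9 and LIN52.

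Upstream sequence was held for 6 of the 9 genes in the RefSeq promoter table of build GRCm38.p6, in 7 windows, since Lin54 had 2 start sites. In the 250 bases upstream of each start, 3 motifs were searched on both strands. The MYB core AACNG was found in 4 of the 7 windows, against 74.2% of all 32851 windows in the table. A CHR, spelled TTTGAA or TTCGAA, was found in 2 of 7, against 17.1% of all windows. An E2F site spelled TTCGCGC or TTGGCGC was found in 1 of 7, against 3.14%. Other spellings of an E2F site were not searched, so a window without a match may still hold one. A match is a run of letters, and binding there was not measured. Shown here are the 2 CHR matches and the E2F match, which lie in genes of MuvB subunits that bind CHRs or join E2F4 in DREAM, and the promoter of Lin52, whose MYB core lies 16 bases before the start. All read 5′ to 3′ on the strand of the gene, with the matched letters in capitals. In Rbbp4 the capitals join 2 overlapping E2F matches on opposite strands, at 15 and 12 bases before the start.
Lin37, chr7:30559826-30559855, minus strand, CHR 197 bases upstream: gagcctcggaagTTTGAAtcacaaccccca
Lin54 (inner start), chr5:100498718-100498747, minus strand, CHR 162 bases upstream: cccctgagtgcgTTTGAAggttggcggggc
Lin52, chr12:84451358-84451507, plus strand: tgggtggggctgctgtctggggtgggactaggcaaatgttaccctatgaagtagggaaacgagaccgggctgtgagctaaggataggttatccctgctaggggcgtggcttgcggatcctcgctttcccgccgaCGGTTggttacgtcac
Rbbp4, chr4:129335371-129335520, minus strand: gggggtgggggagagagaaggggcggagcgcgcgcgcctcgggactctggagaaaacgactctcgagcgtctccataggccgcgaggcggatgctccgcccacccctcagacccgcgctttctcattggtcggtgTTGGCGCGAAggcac

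The 8 libraries held 26995317 to 33771487 gene counts each. Replicates of a group differed beyond sampling noise, with chi-square values of 5.41 to 13.7 for each degree of freedom, and edgeR's biological coefficient of variation came to 0.0631. The first principal component held 64.1% of the variance of log2 CPM and set both Dox + A-MYB libraries (80.71 and 80.86) apart from the other 6 (-48.42 to -9.73). Those 2 libraries also had the largest shares of reads in no annotated gene, 9.43% and 8.80%, against 7.28% to 8.34% in the others. The summed level of 8 ES cell markers ran from 7092 to 7858 CPM in the control, Dox and A-MYB libraries and was 4687 and 5105 CPM in the Dox + A-MYB libraries, with none of the 8 at 0. Levels are CPM, edgeR's scaled read counts after TMM normalization. They compare 1 gene between groups and not 1 gene with another, as no transcript lengths were used. Fold changes are edgeR's, given on the log2 scale with their standard error (SE), and a gene passed at a Benjamini-Hochberg adjusted p under 0.05 over all 14664 genes.

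**Figure D1:**
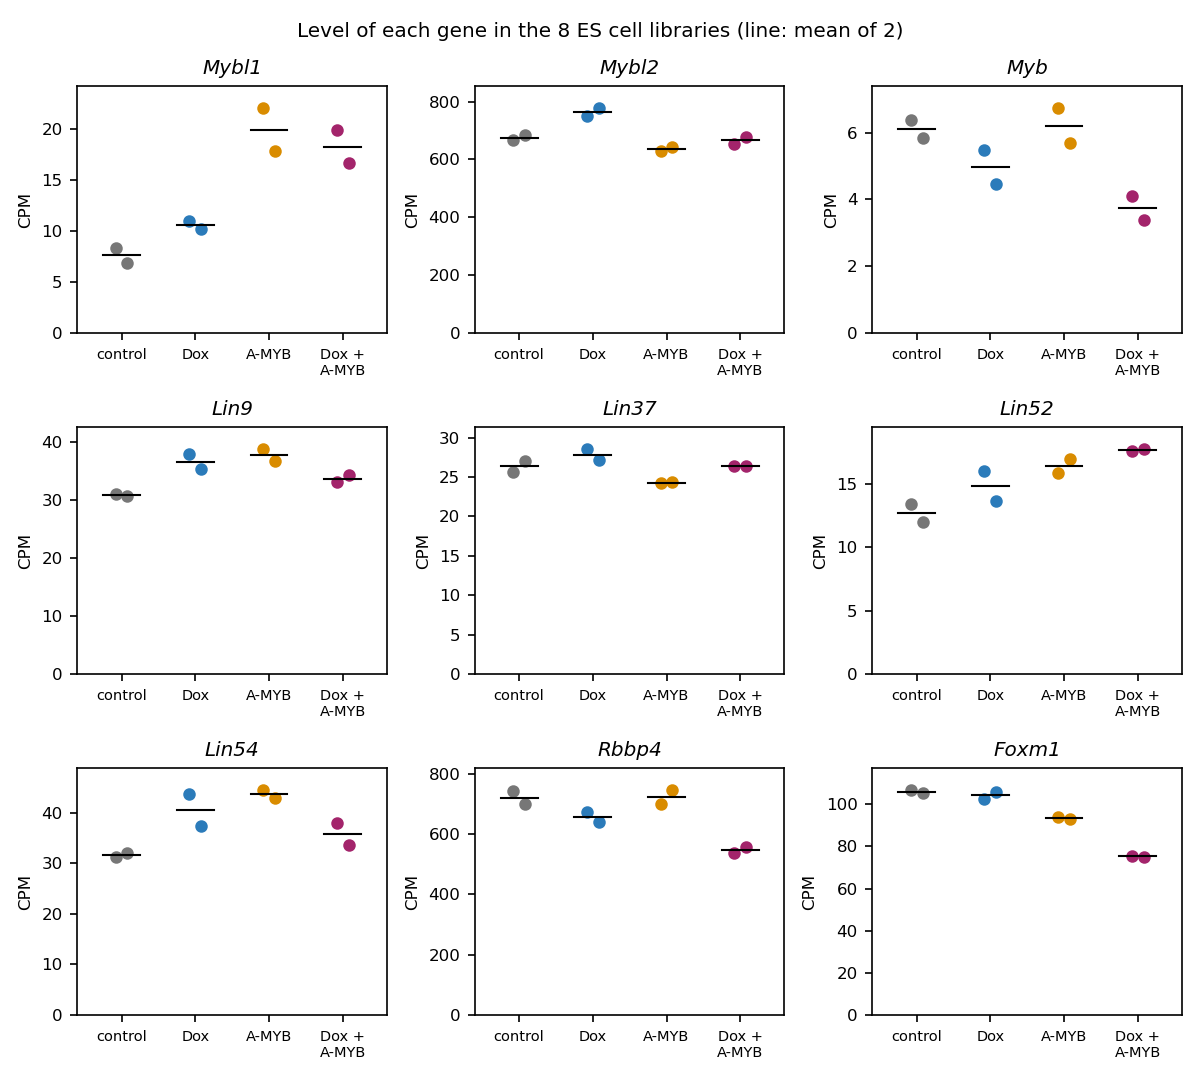
Level in CPM (vertical axis, from 0, with its own scale for each gene) of the 9 genes in each of the 8 ES cell libraries. Each point is 1 library and each line the mean of the 2 in a group. Mybl1 lies highest in the 4 libraries with A-MYB, and Myb, Rbbp4 and Foxm1 lie lowest in the Dox + A-MYB libraries.

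Mybl1 encodes the induced factor itself (gene at chr1:9667407-9700439, GRCm38.p6). It stood at 8.38 and 6.92 CPM in the control libraries (242 and 178 counts), at 11.0 and 10.2 CPM in the Dox libraries, at 22.0 and 17.8 CPM in the A-MYB libraries and at 19.9 and 16.6 CPM in the Dox + A-MYB libraries (682 and 561 counts). All 4 libraries labelled A-MYB lay above all 4 without it. The groups rose in the order control, Dox, Dox + A-MYB and A-MYB, and the last 2 overlapped. A-MYB expression raised Mybl1 2.60-fold without Dox (log2 1.38, SE 0.142, edgeR adjusted p = 1.24e-07) and 1.73-fold with Dox (log2 0.79, SE 0.135, adjusted p = 2.31e-05). Whether reads from the introduced sequence were counted as Mybl1 is not known, since its species and span are not given in the sources used here. The 2.60-fold rise is therefore a change in reads counted for the gene, not a measure of the total A-MYB transcript, and any reads of both origins cannot be told apart. Dox alone raised Mybl1 by 0.47 (log2, SE 0.15, adjusted p = 0.0167). That call was lost without control replicate 2 (0.32, adjusted p = 0.222) or without Dox replicate 1 (0.41, adjusted p = 0.117). With A-MYB present the Dox change of Mybl1 was -0.12 (95% interval -0.39 to 0.14, adjusted p = 0.427).

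Mybl2 encodes B-MYB (chr2:163054327-163084688). Its level was 667 and 684 CPM in control, 751 and 776 with Dox, 629 and 643 in A-MYB and 655 and 679 in Dox + A-MYB libraries. Dox alone gave the highest libraries and A-MYB alone the lowest, and control and Dox + A-MYB libraries overlapped. The highest group mean was 1.20 times the lowest. Mybl2 rose with Dox without A-MYB (log2 0.18, SE 0.054, edgeR adjusted p = 0.0136), a call that was lost when any 1 of those 4 libraries was left out (adjusted p up to 0.241). It fell with A-MYB in the presence of Dox (log2 -0.20, SE 0.054, adjusted p = 0.00343). The fall did not pass without Dox replicate 2 (adjusted p = 0.0556) or when libraries were scaled to their total counts (log2 -0.0047, adjusted p = 0.946). A-MYB without Dox changed Mybl2 by -0.09 (95% interval -0.20 to 0.02).

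Myb encodes c-MYB (chr10:21124930-21160984) and had only 114 to 184 counts per library. Its level was 6.37 and 5.83 CPM in control, 5.48 and 4.47 with Dox, 6.72 and 5.68 in A-MYB and 4.09 and 3.38 in Dox + A-MYB libraries. Both Dox + A-MYB libraries lay below the other 6, while control and A-MYB libraries overlapped. Myb fell with Dox in A-MYB cells (log2 -0.73, SE 0.198, edgeR adjusted p = 0.00278), and stood below control in Dox + A-MYB cells by 0.71 (SE 0.199, adjusted p = 0.00316). Both calls held when each library was left out in turn and under each other alternative fit. The other changes of Myb did not pass: the 95% intervals were -0.69 to 0.11 for Dox without A-MYB and -0.38 to 0.42 for A-MYB without Dox. For A-MYB with Dox the change was -0.42, with an interval of -0.83 to -0.0044 that excludes 0 and an edgeR adjusted p of 0.0802 (unadjusted 0.0478).

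Lin54, the MuvB subunit that binds CHR elements (chr5:100442033-100500639), was raised by each treatment alone. It stood at 31.3 and 32.2 CPM in control, 43.8 and 37.4 with Dox, 44.5 and 43.0 in A-MYB and 38.0 and 33.7 in Dox + A-MYB libraries. The 2 control libraries were below all others. A-MYB alone raised Lin54 (log2 0.46, SE 0.092, edgeR adjusted p = 0.000347), a call kept without each library in turn. Dox alone raised it too (log2 0.36, SE 0.092, adjusted p = 0.00418), but not without control replicate 1 (adjusted p = 0.0746) or Dox replicate 1 (adjusted p = 0.153). In A-MYB cells Dox lowered Lin54 (log2 -0.29, SE 0.090, adjusted p = 0.00846). That fall was lost with total-count scaling (-0.08, adjusted p = 0.483), without A-MYB replicate 1 (-0.26, adjusted p = 0.0525) and without Dox + A-MYB replicate 2 (-0.22, adjusted p = 0.0746).

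Lin9, the subunit that holds B-MYB (chr1:180641150-180690687), followed a like order. Its level was 31.1 and 30.7 CPM in control, 38.0 and 35.3 with Dox, 38.8 and 36.8 in A-MYB and 33.2 and 34.3 in Dox + A-MYB libraries. Control libraries were lowest, Dox + A-MYB libraries came next, and Dox and A-MYB libraries overlapped at the top. Lin9 rose with Dox alone (log2 0.25, SE 0.086, edgeR adjusted p = 0.0311) and with A-MYB alone (log2 0.29, SE 0.087, adjusted p = 0.0112). The Dox call was lost without any 1 of its 4 libraries and in the DESeq2 and RLE-scaled fits (DESeq2 adjusted p = 0.0846). The A-MYB call was lost without control replicate 1 (0.0798), control replicate 2 (0.0943) or A-MYB replicate 1 (0.15, adjusted p in each case).

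Lin52, whose phosphorylation by DYRK1A is known to favour DREAM over MYB-MuvB (chr12:84451508-84531533), was highest in Dox + A-MYB cells. It stood at 13.4 and 12.0 CPM in control, 16.0 and 13.7 with Dox, 15.8 and 17.0 in A-MYB and 17.6 and 17.7 in Dox + A-MYB libraries. Control libraries were the lowest and Dox + A-MYB libraries the highest, with Dox and A-MYB libraries overlapping between them. In Dox + A-MYB against control cells Lin52 rose by 0.48 (log2, SE 0.120, edgeR adjusted p = 0.00122), a call kept under every alternative. For A-MYB without Dox the rise was 0.37 (SE 0.122, adjusted p = 0.0204), and it did not pass in DESeq2 (adjusted p = 0.0513) or without any 1 of the 4 libraries (adjusted p up to 0.206).

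Lin37, needed for repression by DREAM (chr7:30555441-30559721), passed in none of the 6 comparisons in edgeR or DESeq2, and in none at an unadjusted p under 0.05 in edgeR. Its level was 25.7 and 27.1 CPM in control, 28.5 and 27.2 with Dox, 24.2 and 24.3 in A-MYB and 26.4 and 26.4 in Dox + A-MYB libraries. The highest group mean, in Dox cells, was 1.15 times the lowest, in A-MYB cells. The 95% interval of its change in Dox + A-MYB against control cells was -0.19 to 0.19, and with total-count scaling that change was 0.24 (adjusted p = 0.0279).

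Rbbp4, a histone-binding WD40 protein shared with several chromatin complexes (chr4:129307100-129335370), fell in Dox + A-MYB cells. It stood at 741 and 699 CPM in control, 671 and 641 with Dox, 700 and 744 in A-MYB and 537 and 557 in Dox + A-MYB libraries. Dox + A-MYB libraries were lowest, Dox libraries came next, and control and A-MYB libraries overlapped. Rbbp4 fell with Dox in A-MYB cells (log2 -0.40, SE 0.057, edgeR adjusted p = 1.43e-06) and with A-MYB in Dox cells (log2 -0.26, SE 0.057, adjusted p = 0.000355). The former held under every alternative; the latter was -0.07 with total-count scaling (adjusted p = 0.275). Without A-MYB the Dox change was -0.13 (adjusted p = 0.0707), which passed in DESeq2 (-0.16, adjusted p = 0.0193), with RLE scaling (adjusted p = 0.0293), in a fit of control and Dox libraries alone (adjusted p = 0.00227) and when control replicate 2 was left out (adjusted p = 0.0472). Rbbp4 shares 2284 bases of its span with Sync, which had 84 to 191 counts, and it has a close paralog in Rbbp7. How the counting treated reads that match both was not analysed here.

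Foxm1 encodes the forkhead factor that joins MuvB after B-MYB (chr6:128362994-128375886). Its level was 106.5 and 105.3 CPM in control, 102.7 and 105.9 with Dox, 94.1 and 93.1 in A-MYB and 75.4 and 75.1 in Dox + A-MYB libraries. Control and Dox libraries overlapped, A-MYB libraries lay below both, and Dox + A-MYB libraries were lowest. Foxm1 fell with A-MYB in Dox cells (log2 -0.47, SE 0.065, edgeR adjusted p = 1.1e-06), a call kept under every alternative. It fell with Dox in A-MYB cells (log2 -0.31, SE 0.065, adjusted p = 0.000205), but with total-count scaling that change was -0.10 (adjusted p = 0.175). The fall with A-MYB alone was smaller (log2 -0.18, SE 0.065, adjusted p = 0.0342) and did not pass with total-count scaling, without the filter on low counts, or without any 1 of the 4 libraries (adjusted p up to 0.0872). Dox alone changed Foxm1 by -0.02 (95% interval -0.16 to 0.11). Foxm1 shares 377 bases of its span with Tex52.

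**Figure D2:**
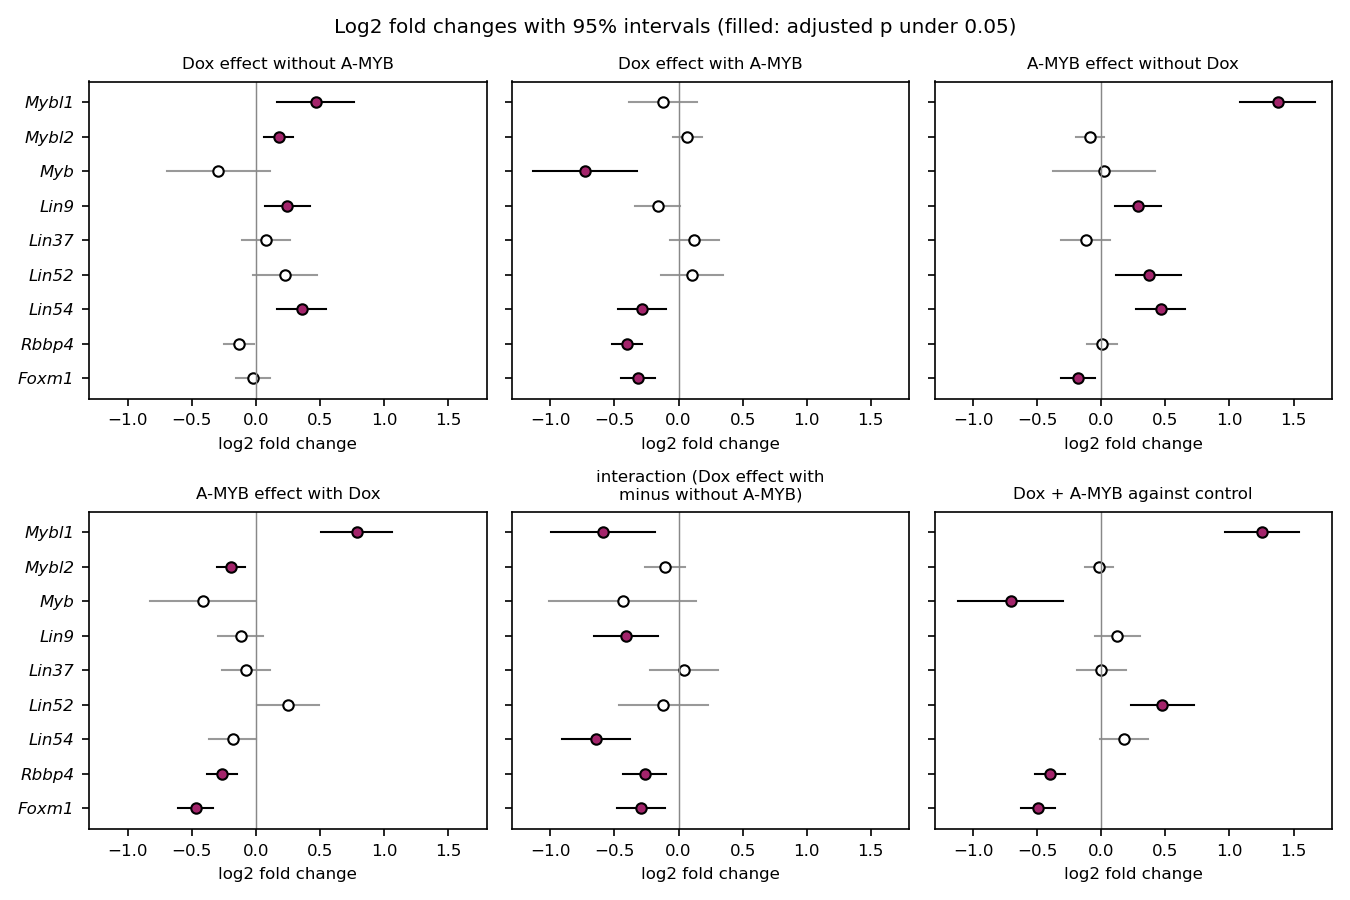
Log2 fold change (horizontal axis) of each gene in the 6 comparisons, with the 95% interval as a bar. Filled points passed at an adjusted p under 0.05 in edgeR and open points did not. Mybl1 rises with A-MYB by 1.38 and 0.79, and 5 genes have an interaction below 0.

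Over the 9 genes, each comparison was read against the share of all tested genes called in it. Dox without A-MYB raised 4 of 9 (Mybl1, Mybl2, Lin9 and Lin54), where 32.2% of all genes tested were called, 17.9% higher and 14.3% lower. A-MYB without Dox raised 4 (Mybl1, Lin9, Lin52 and Lin54) and lowered Foxm1, where 34.7% of genes were called, 19.5% higher and 15.2% lower. In A-MYB cells Dox lowered 4 (Myb, Lin54, Rbbp4 and Foxm1), where 58.9% of genes were called, 30.4% lower and 28.5% higher. In Dox cells A-MYB lowered Mybl2, Rbbp4 and Foxm1 and raised Mybl1, where 55.2% of genes were called, 28.4% lower and 26.8% higher. In Dox + A-MYB against control cells Mybl1 and Lin52 were higher and Myb, Rbbp4 and Foxm1 lower, where 63.9% of genes were called, 33.5% higher and 30.4% lower. In each of the last 3 comparisons the share called among the 9 genes was below that of all genes. The first of these comparisons has its control libraries in common with the second, and the third has its Dox + A-MYB libraries in common with the fourth.

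Separation of the libraries alone was common. The 2 libraries of each group lay apart for 8 of the 9 genes with Dox in cells lacking A-MYB (67.1% of all genes tested), 8 with Dox in A-MYB cells (78.1%), 7 with A-MYB in cells without Dox (66.1%), 8 with A-MYB in Dox cells (77.1%) and 7 for both treatments against control (80.6%).

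The counts for each treatment alone changed when single libraries were left out. Dox without A-MYB called 4 of the 9 genes with all libraries, 1 without control replicate 1, 2 without control replicate 2, 0 without Dox replicate 1 (4 at an unadjusted p under 0.05 in edgeR, and 2719 of all genes called) and 2 without Dox replicate 2. A-MYB without Dox called 5, and 2 without control replicate 1, control replicate 2 or A-MYB replicate 1, and 3 without A-MYB replicate 2. Dox + A-MYB against control called 5 with all libraries and 5 without each of its 4 libraries in turn. In the fits without 1 library the lone library of its group was taken to vary like the other groups. Over the 6 comparisons, with all libraries, 32.2% to 63.9% of all genes tested were called. How many of these kept their calls in the alternatives is not given here. Of 54 tests (9 genes in 6 comparisons) 27 passed, 14 of these passed without each library in turn, and 12 passed in every alternative fit.

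Scaling also moved these results. With libraries scaled to their total counts in place of TMM, the median log2 change over all genes went from 0.01 to 0.22 for Dox with A-MYB, from 0.01 to 0.20 for A-MYB with Dox, from -0.00 to 0.16 for the interaction and from 0.05 to 0.28 for Dox + A-MYB against control. The split of called genes moved with it: 4174 higher and 4463 lower became 6204 and 2606 for Dox with A-MYB, 3935 and 4161 became 5804 and 2367 for A-MYB with Dox, 2410 and 3586 became 3746 and 2291 for the interaction, and 4906 and 4462 became 6946 and 2796 for both treatments against control. For Dox without A-MYB, 2626 higher and 2091 lower became 3238 and 1731, and with RLE scaling 2294 and 2361. Of the 27 calls among the genes described here, 18 passed with total counts as well and 9 did not. The falls of Rbbp4 and Myb with Dox in A-MYB cells and of Foxm1 with A-MYB in Dox cells were among those that passed. So were the rises of Mybl1 with A-MYB, both with and without Dox.

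The Dox effect differed with A-MYB status in 5 of the 9 genes, all below 0, where 40.9% of all genes tested had a called interaction, 24.5% below 0 and 16.4% above. Lin54 went from 0.36 without to -0.29 with A-MYB, an interaction of -0.64 (log2, SE 0.129, edgeR adjusted p = 0.000291). It passed without each of the 8 libraries in turn and with total-count scaling (-0.48, adjusted p = 0.00485). Mybl1 had an interaction of -0.59 (SE 0.196, adjusted p = 0.0183), Lin9 of -0.41 (SE 0.121, adjusted p = 0.00881), Foxm1 of -0.29 (SE 0.092, adjusted p = 0.0129) and Rbbp4 of -0.27 (SE 0.080, adjusted p = 0.00984). None of these 4 passed with total-count scaling (adjusted p of 0.0871, 0.114, 0.288 and 0.32 in the same order). Without control replicate 2, Dox replicate 1 or A-MYB replicate 1, in turn, 2 of the 9 genes were called. The interaction was not called for Mybl2 (-0.11, 95% interval -0.27 to 0.05), Myb (-0.44, -1.01 to 0.14), Lin37 (0.04, -0.23 to 0.31) or Lin52 (-0.12, -0.47 to 0.23).

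Pathway genes were taken from 5 lists chosen by role, with earlier results of these data known. Their counts are set beside the share of all 14664 genes called in the same comparison. The first held 12 genes, mostly of partners and regulators of MuvB: pocket proteins, E2F and DP subunits, and kinase and ubiquitin ligase subunits that act on MuvB or B-MYB. It also held Rbbp7, the paralog of Rbbp4, and Rb1, whose product is not among the DREAM subunits given above. With A-MYB alone 5 of 12 rose and 2 fell (median log2 change 0.16, all genes -0.00), where 19.5% of all genes rose and 15.2% fell. Rb1, the retinoblastoma tumour suppressor, rose from 7.15 to 17.5 CPM (log2 1.29, edgeR adjusted p = 1.23e-07). Dyrk1a, the kinase of LIN52, rose by 0.36, and the pocket protein genes Rbl1 (p107) and Rbl2 (p130) by 0.42 and 0.52. With Dox in A-MYB cells 9 of 12 fell and 1 rose (median -0.38, all genes 0.01), where 30.4% of all genes fell and 28.5% rose. Ccna2, encoding cyclin A2, fell from 332 to 222 CPM (log2 -0.58, adjusted p = 1.68e-09), Tfdp1 (DP1) by 0.49 and Ccnf (cyclin F) by 0.48, while Rbl2 rose by 0.49. With total-count scaling 5 fell and 2 rose (median -0.17). With A-MYB in Dox cells 8 fell and 2 rose (4 and 3 with total counts), where 28.4% of all genes fell and 26.8% rose, and Rbl2 rose from 12.2 to 22.5 CPM.

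Dox alone raised 4 of these 12 genes and lowered 1 (median 0.09, all genes 0.03), where 17.9% of all genes rose and 14.3% fell, but without any 1 of the control and Dox libraries only 1 or 2 rose and none fell. Rb1 was among the 4, from 7.15 to 11.8 CPM (log2 0.72, edgeR adjusted p = 0.000224). The interaction was below 0 in 11 of the 12 (median -0.37, all genes -0.00), against 24.5% of all genes. Rbl2 was the gene not called there (0.37, adjusted p = 0.087). With total-count scaling 5 interactions were below 0 and 1 above. In Dox + A-MYB against control cells 3 rose and 6 fell (median -0.13, with 33.5% of all genes higher and 30.4% lower), against 5 and 4 with total counts (median 0.10), so the sign of that median turned with the scaling.

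The second list held 6 genes of coactivators linked to MYB factors. Dox alone raised 3 and lowered 1 (median 0.30), where 32.2% of all genes were called: Ep300 rose from 148 to 218 CPM (log2 0.56, edgeR adjusted p = 5.75e-07), its paralog Crebbp by 0.47 and the histone methyltransferase gene Mll1 by 0.53, while Men1, encoding menin, fell by 0.37. A-MYB alone raised 3 and lowered 1 (median 0.21), where 34.7% of all genes were called, with changes of 0.35 for Ep300, 0.29 for Crebbp, 0.30 for Mll1 and -0.44 for Men1. Without control replicate 1 only 1 rose. In A-MYB cells Dox lowered 3 and raised 1 (median -0.08, and 0.13 with total counts, where 2 fell and 3 rose), and these 4 of 6 compare with 58.9% of all genes called. Men1 fell from 91.1 to 54.0 CPM there (log2 -0.76, adjusted p = 1.43e-09) and Psip1, whose product tethers menin complexes to chromatin, from 255 to 163 CPM. In Dox + A-MYB against control cells 3 of the 6 rose and 2 fell (median 0.16), where 63.9% of all genes were called. With total counts 4 rose and 2 fell (median 0.39). Men1 changed by -1.20 there on the log2 scale with TMM (edgeR adjusted p = 1.16e-13).

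The 28 G2/M genes, mitotic genes that MYB-MuvB and FOXM1 are known to activate, were mostly lower with Dox in A-MYB cells: 25 fell and 1 rose (median -0.39, all genes 0.01), where 30.4% of all genes fell, and 22 to 25 fell without any 1 library. With total-count scaling 14 fell and 1 rose (median -0.18). Kif23, a kinesin of the central spindle, went from 231 to 99.2 CPM (log2 -1.22, edgeR adjusted p = 5.99e-15). Ccnb1 and Cdk1, cyclin B1 and its kinase, fell by 0.80 and 0.77. With A-MYB in Dox cells 19 fell and 2 rose (median -0.29; 13 and 4 with total counts), where 28.4% of all genes fell. In Dox + A-MYB against control cells 19 fell and 4 rose (median -0.42; 15 and 9 with total counts), where 30.4% of all genes fell and 33.5% rose, and 0 to 3 rose without any 1 library (0 without control replicate 2). A-MYB alone raised 7 and lowered 8 (median -0.04), where 19.5% of all genes rose and 15.2% fell. Ect2, a regulator of cytokinesis, rose by 0.56 and the checkpoint kinase gene Bub1 by 0.52, while Cdca3 fell by 0.32. Without A-MYB replicate 1 only 3 rose. Dox alone lowered 9 and raised 2 (median -0.11), where 14.3% of all genes fell and 17.9% rose, and 5 fell without Dox replicate 1.

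**Figure D3:**
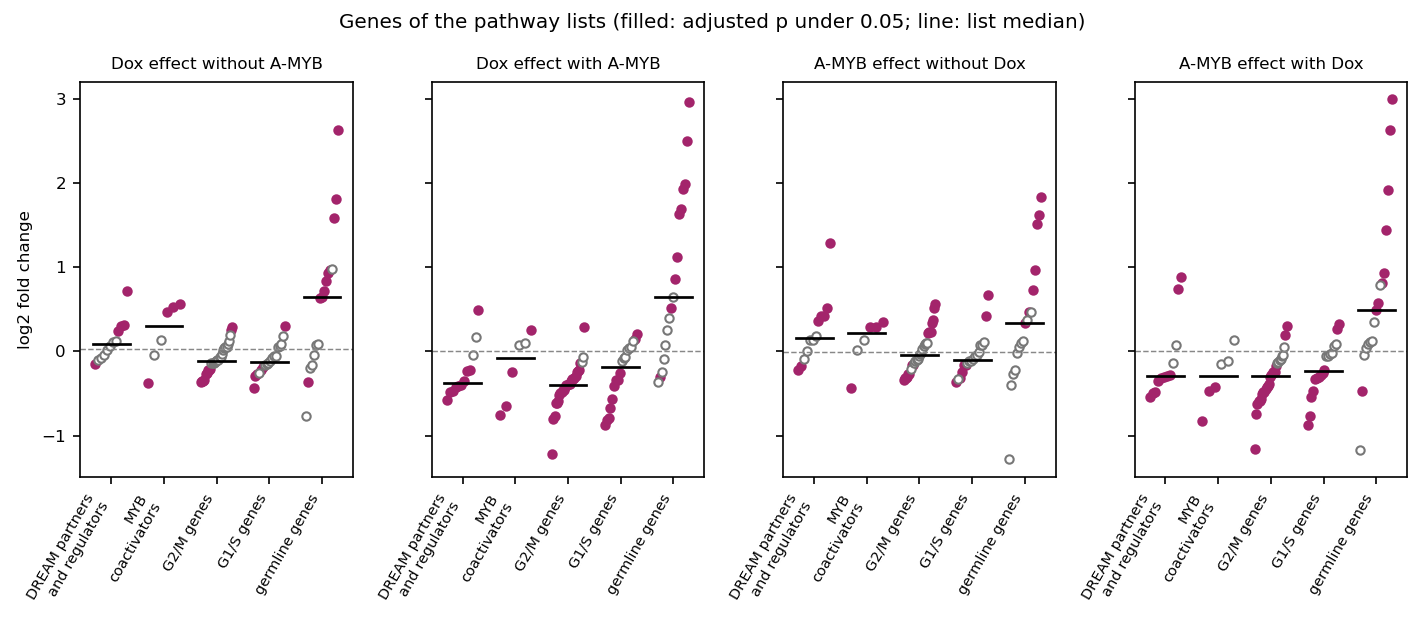
Log2 fold change (vertical axis) of every tested gene of the 5 pathway lists in 4 comparisons. Each point is 1 gene, filled where it passed at an adjusted p under 0.05 in edgeR, solid lines are list medians and the dashed line is the median of all tested genes. With Dox in A-MYB cells 25 of 28 G2/M genes fall and 9 of 17 germline genes rise.

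The 18 G1/S genes, which E2F factors and DREAM control, depended on the scaling as a list. Dox in A-MYB cells lowered 9 and raised 2 (median -0.19), but with total counts 5 fell and 7 rose (median 0.02). The 11 of 18 called there compare with 58.9% of all genes. Ccne1, encoding cyclin E1, fell from 181 to 98.4 CPM (log2 -0.88, edgeR adjusted p = 4.29e-12), and Rrm2, a subunit of ribonucleotide reductase, by 0.67. In Dox + A-MYB against control cells 12 fell and 2 rose (median -0.20), where 30.4% of all genes fell and 33.5% rose, and with total counts 5 fell and 5 rose (median 0.03). Without control replicate 2 none of them rose. A-MYB alone lowered 5 and raised 2 (median -0.10): E2f1 fell by 0.36 and Ccne2 rose by 0.67. Dox alone lowered 5 and raised 1 (median -0.13), and 1 fell without Dox replicate 1. The 7 of 18 called with A-MYB alone and the 6 of 18 with Dox alone compare with 34.7% and 32.2% of all genes. These shares called in either direction, and that of Dox in A-MYB cells, lay near the background. By direction, 9 of 18 fell with Dox in A-MYB cells, 5 with A-MYB alone and 5 with Dox alone. Of all genes 30.4%, 15.2% and 14.3% fell in the same order. With total counts 5, 3 and 4 of the 18 fell.

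Of 20 germline genes linked to A-MYB in the testis, 17 could be tested, and Tdrd6, Morc2b and Spo11 had 10, 32 and 5 counts over all 8 libraries. With Dox alone 9 rose and 1 fell (median 0.64, all genes 0.03), 7 rose and none fell with A-MYB alone (median 0.34), and 9 rose and 1 fell with Dox in A-MYB cells (median 0.64). Of all genes 17.9%, 19.5% and 28.5% rose in the same order, and 14.3%, 15.2% and 30.4% fell. Stag3, a meiotic cohesin subunit, had 45.7 CPM in control cells, 89.7 with Dox, 76.0 with A-MYB and 244.8 with both (log2 2.42 for both against neither, edgeR adjusted p = 2.69e-19). Taf7l, a germ cell TFIID subunit, went from 2.58 through 7.78 and 7.37 to 29.3 CPM, and the piRNA pathway helicase gene Tdrd9 from 0.90 through 3.09 and 3.18 to 24.8 CPM. The interaction was above 0 in 4 of 17 (Stag3, Tex101, Mov10l1 and Tdrd9), against 16.4% of all genes. Piwil1 was not called in A-MYB against control cells (1.05 and 1.46 CPM, adjusted p = 0.397). Without control replicate 1, A-MYB alone raised 3 of the 17. Mybl1 and the germline genes moved beside marker sums of another kind: 10 spermatocyte markers summed to 16.2 and 20.0 CPM in control libraries, 27.6 and 32.6 with Dox, 36.5 and 43.2 with A-MYB and 40.9 and 52.0 with both. Hormad1 was the largest part of these sums, with 10.57 CPM in control and 25.99 CPM in Dox + A-MYB cells. Ldhc ran the other way, from 3.45 to 1.37 CPM. For both treatments against control, 5 of the 7 tested markers were called higher and 1, Ldhc, lower. Of all genes 33.5% were called higher and 30.4% lower there. Piwil1 and Tdrd6 stand in both lists, and 1 or 2 of the 10 markers were at 0 in each group except Dox + A-MYB. The part of this in the changes was not tested.

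In Dox + A-MYB cells, where Myb, Rbbp4 and Foxm1 were lowest, all 8 ES cell markers were called lower than in control. Of all genes tested, 33.5% were called higher and 30.4% lower in that comparison, which is the background for every marker count below. Nanog, a pluripotency factor, had 983 CPM in control cells, 1005 with Dox, 950 with A-MYB and 479 with both. Pou5f1 had 1542, 1430, 1203 and 1261 CPM in the same order and was not called for Dox in A-MYB cells (log2 0.07, edgeR adjusted p = 0.509). The 6 spermatogonial genes summed to 301 to 315 CPM in control and 132 to 133 in Dox + A-MYB libraries, a sum carried by Kit (286 and 92.3 CPM); of the 5 tested, 2 were called lower and 2 higher, Dmrt1 (16.2 to 31.0 CPM) and Sohlh1 (0.04 to 6.06 CPM). The 5 neuroectodermal genes summed to 115 to 118 and 150 to 152 CPM, mostly Nes (100.5 and 125.6 CPM), and of the 4 tested 3 were called higher and Sox1 lower (4.86 to 2.19 CPM). The 8 fibroblast markers summed to 3.36 to 6.44 CPM and 7 endoderm markers to 5.26 to 9.05 CPM over all 8 libraries. The part of these markers in the changes of Myb, Rbbp4, Foxm1 and the G2/M genes was not tested.

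The genes with the pattern most like Mybl1 over the 8 libraries, by Pearson r of log2 CPM among 10254 tested genes with a mean of at least 5 CPM, were Fsd1l (r = 0.9861), Ostm1 (0.9852), Fam45a (0.9815) and Rnf168 (0.9811). Fsd1l went from 30.4 CPM in control cells to 40.7 with Dox, 62.1 with A-MYB and 62.4 with both. Those most like Mybl2 were Fiz1 (0.9696), Jak3 (0.9662), Pygb (0.9644) and Wfdc2 (0.9623), all highest in Dox cells. Those most like Foxm1 were Ints5 (0.9969), Agpat2 (0.9963), Zc3h4 (0.9953) and Zmym3 (0.9938), and Ints5 fell from 137 CPM in control to 90.9 in Dox + A-MYB cells. Within the 9 genes the highest r were those of Lin9 with Lin54 (0.929) and Myb with Rbbp4 (0.891). Mybl1 followed Lin52 most closely (r = 0.872) and Mybl2 followed Lin37 (0.830). Foxm1 ran with Rbbp4 (0.802) and against Lin52 (-0.804) and Mybl1 (-0.732). These values describe 8 libraries that share 4 treatments and carry no test.

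Acetylation of histone H3 at lysine 27 (H3K27ac), a mark of active promoters and enhancers, was listed for pachytene spermatocytes, the meiotic cells in which A-MYB acts. The cells came from C57BL/6J males of 8 to 12 weeks, wild type or A-myb mutant (repro9/repro9), 1 male per preparation and 2 libraries per genotype. The deposited lists held 29042 and 24130 peaks in wild type and 22397 and 21269 in the mutant. None of the 9 genes had a listed peak within its span or 1 kb around it in any of the 4 libraries. Among all 27025 genes with a start in the promoter table, 2.72% and 1.49% in wild type and 0.973% and 0.962% in the mutant had a peak within 1 kb of the start. By that measure 0 of the 6 members with a start had a peak. The share of all genes with a peak in their span was not computed. The nearest listed peak to Mybl1 lay 14817 to 15042 bases away over the 4 libraries. Within 2.5 kb of the start these shares were 3.94%, 2.58%, 1.92% and 1.88%. The lists thus hold a peak at few starts of any gene, and why a gene has none listed was not tested. Levels of acetylation at these genes were not analysed here.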

How the data were processed

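Values in the ES cell files, as deposited, are unscaled read counts, 1 whole number for each gene symbol. The deposited peak lists hold, for each peak, tag counts, fold enrichment as a ratio, and a score that was not used. Per the submitters' processing notes, which give no roles or settings, the tools were bcl2fastq 2.20.0, HISAT2 2.1.0, HTSeq, Bowtie2 2.3.3.1 and MACS 1.4.2, with build mm10. The sources used here do not say whether the counting used strand. Reads assigned to no gene (17.2% to 19.5% per library, in 5 special lines) were left out.

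All 8 ES libraries were fitted in edgeR 4.0.16 (TMM, filterByExpr, robust glmQLFit with 1 coefficient per group, two-sided glmQLFTest, R 4.3.3). The SE was derived from the log2 fold change and its F statistic (size over root F), and CPM uses the TMM-adjusted library size. Alternatives were DESeq2 1.42.0, RLE or total-count scaling, no filter, only the compared groups, a replicate block, and each library left out in turn. List counts under other scalings and without single libraries were added after seeing the data. The script was tested on simulated data.

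All 9 genes are named throughout, with up to 4 genes of smallest p per list and comparison, and the 4 genes most like Mybl1, Mybl2 and Foxm1. Outside that rule, Nanog, Pou5f1, Kit, Dmrt1, Sohlh1, Nes, Sox1, Piwil1, Tdrd6, Morc2b, Spo11, Sync, Tex52, Rbbp7 and, in some comparisons, Rbl2 were named after their values were seen. So were Hormad1 and Ldhc. Members and lists were chosen with earlier results of these data known. Mll1 is the files' symbol for Kmt2a. The 4 spermatocyte input libraries were not used here. Sequences are from RefSeq (GRCm38.p6).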

Additional observations from a re-analysis of the deposited data

Results flagged for a closer look

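In 5 genes the Dox effect differed between cells with and without A-MYB, by the test of the interaction in edgeR. Of all genes tested, 40.9% had a called interaction. On the log2 scale this difference, the effect in A-MYB cells less the effect in cells lacking it, was -0.59 for Mybl1, -0.41 for Lin9, -0.64 for Lin54, -0.27 for Rbbp4 and -0.29 for Foxm1. Dox raised Mybl1, Lin9 and Lin54 in cells without A-MYB, but each of these calls depended on single libraries, as described above. Where A-MYB was present, Dox lowered Lin54, Rbbp4 and Foxm1. The falls of Lin54 and Foxm1 there did not pass with total-count scaling. Of the 5 interactions, that of Lin54 alone passed under total-count scaling.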

How the results depend on the processing

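Leaving out 1 library at a time gave 2669 to 3304 genes called for Dox without A-MYB (4717 with all, lowest without control replicate 1) and 0 to 2 of the 9 genes (4 with all). For A-MYB without Dox it gave 3200 to 4419 genes (5086 with all, lowest without A-MYB replicate 1) and 2 to 3 of the 9 (5 with all). For the interaction 2 to 5 of the 9 passed (5 with all), and 1 with total-count scaling. For Dox + A-MYB against control 9 passed with total-count scaling (5 with TMM). Changes of sign, each in a gene not called with TMM, were as follows (log2). With total-count scaling Foxm1 became 0.022 for Dox without A-MYB; Mybl1 0.087 and Lin9 0.047 for Dox with A-MYB; Lin9 0.071, Lin37 0.11 and Lin54 0.0097 for A-MYB with Dox; Mybl2 0.058 and Lin52 0.045 for the interaction; and Mybl2 0.22 for both against control (adjusted p = 0.000932). For A-MYB without Dox, Rbbp4 became -0.018 in DESeq2, -0.020 with RLE scaling and -0.00087 with only the compared groups, and ran from -0.067 to 0.017 without single libraries. Myb there became -0.0023 with RLE scaling and ran from -0.13 to 0.11. Lin37 in both against control became -0.020 in DESeq2, -0.017 with RLE scaling, -0.015 without the filter and -0.022 with only the compared groups, and ran from -0.068 to 0.0088. Without single libraries Mybl1 for Dox with A-MYB ran from -0.27 to 0.035, and Foxm1 for Dox without A-MYB from -0.070 to 0.00017. The cause was not tested.

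The replicate block gave 4958 genes called for Dox without A-MYB (4717 without it) and changed no call of the 9 genes. Same-numbered libraries deviated together little (correlations of -0.027 to 0.084), so the numbers were not taken to pair samples. No peak was listed at the 9 genes with a window of 2.5 kb either; a fold of at least 10 can only remove peaks. The 2 libraries per group, and counts of 114 to 184 for Myb, limit what could be resolved.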
